A study of Saccharomyces cerevisiae with 12 samples.

Results

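The 53 yeast genes described here carry the standard names NOP, UTP or RRP followed by a number, and were taken from a table of 5935 genes by that naming rule alone. They comprise 17 NOP genes, 18 UTP genes and 18 RRP genes, and all 53 passed the filter on low values. The initials stand for nucleolar protein, U3 snoRNA-associated protein and ribosomal RNA processing. None of the 53 was in the authors' deposited list of 506 genes filtered on fold change and p value, and none overlaps another annotated gene in assembly R64. That list leaves out genes with smaller fold changes, so absence from it does not show that levels were alike.

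Transcript levels were measured by RNA sequencing in 12 libraries of Saccharomyces cerevisiae BY4741, 3 from each of 4 haploid MATa strains that share his3Δ1, leu2Δ0, met15Δ0 and ura3Δ0. Per the labels, the strain called wild type carries a 2FLAG tag linked to LEU2 on Snf2. The swp82Δ, snf2Δ and snf5Δ strains each carry kanMX4 in place of the named gene and the 2FLAG tag linked to LEU2 on Snf6, so tag position goes with each comparison against the wild type and cannot be told apart from the deletion. Snf2, Snf5, Swp82 and Snf6 belong to SWI/SNF, a nucleosome remodelling complex whose motor is the ATPase Snf2. The 3 biological replicates of each strain were harvested in log phase, between OD600 0.75 and 1.0, from growth at 30 °C. Libraries held 9012746 to 12875057 reads, and 1 read was worth 0.0801 to 0.118 in the unit used here, scaled CPM (CPM after TMM scaling by the authors). The deleted genes had 2 reads (SNF5), 22 reads (SNF2) and 0 reads (SWP82) in all 3 libraries of their own strain. LEU2 went against the labels: it stood at 56.2 ± 0.869 scaled CPM in the wild type (SD, n = 3) and 74.7 ± 16.1 in snf5Δ, but had 0 reads in swp82Δ and in snf2Δ. LEU2 status therefore goes with each comparison of swp82Δ or snf2Δ with the wild type or snf5Δ, and its part in the results was not tested.

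Ribosome biogenesis begins in the nucleolus, where RNA polymerase I makes a long precursor that is folded, cut and chemically modified into the ribosomal RNAs. U3 snoRNA and the Utp proteins assemble on the emerging precursor as the small-subunit processome, box C/D and box H/ACA snoRNPs guide methylation and pseudouridylation, separate factors build the large subunit, and the RNA exosome trims and degrades processing products. The genes for these factors are known in yeast as a regulon that is switched with growth rate and stress, and many carry 2 upstream elements called PAC and RRPE. The repressors Dot6 and Tod6 bind PAC, and Stb3 binds RRPE.

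Sequence upstream of the 53 genes was searched on both strands for the core of PAC (GATGAG) and the core of RRPE (AAAATTTT) in the 300 bases before the start codon. The PAC core was present in 43 of the 53 genes (81.1%), against 18.7% of 5682 genes read in R64. The RRPE core was present in 31 (58.5%), against 9.68%, and both were present in 26 (49.1%), against 4.68%. A longer PAC string, GCGATGAG, which contains the PAC core, was present in 43.4% of the 53 and in 4.28% of all. The median position of PAC cores was 119 bases before the start codon and that of RRPE cores 133 bases. The following stretches of 150 bases, from 240 to 91 bases before the start codon, are printed because these genes carry the results below: RRP12 and NOP7 varied most between replicates, NOP1 had the highest level in scaled CPM, RRP14 and NOP16 differed between strains relative to the other members, and UTP22 and RRP42 varied least among those called. Each reads 5′ to 3′ on the coding strand in R64. Capitals mark complete matches to the PAC core or to its reverse complement, and to the RRPE core, which is its own reverse complement; neighbouring PAC matches in RRP12 and NOP7 overlap each other.
RRP12 (chrXVI:529483-529632, + strand): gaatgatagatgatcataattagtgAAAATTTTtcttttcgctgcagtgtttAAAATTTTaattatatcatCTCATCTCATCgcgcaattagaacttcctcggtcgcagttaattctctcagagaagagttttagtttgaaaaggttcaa
NOP7 (chrVII:695177-695326, + strand): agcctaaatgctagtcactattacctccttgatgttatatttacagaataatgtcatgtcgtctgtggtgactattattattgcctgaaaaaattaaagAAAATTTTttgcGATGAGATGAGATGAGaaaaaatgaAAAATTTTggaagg
NOP1 (chrIV:427124-427273, + strand): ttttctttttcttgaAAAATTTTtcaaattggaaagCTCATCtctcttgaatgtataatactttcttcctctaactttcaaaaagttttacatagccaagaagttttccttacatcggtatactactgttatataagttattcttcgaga
RRP14 (chrXI:282420-282569, - strand): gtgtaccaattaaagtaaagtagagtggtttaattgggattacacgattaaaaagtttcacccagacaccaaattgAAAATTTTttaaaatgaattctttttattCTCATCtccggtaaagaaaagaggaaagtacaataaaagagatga
NOP16 (chrV:156563-156712, + strand): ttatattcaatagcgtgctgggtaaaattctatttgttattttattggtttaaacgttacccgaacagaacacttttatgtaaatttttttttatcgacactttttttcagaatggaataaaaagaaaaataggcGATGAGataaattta
UTP22 (chrVII:662118-662267, + strand): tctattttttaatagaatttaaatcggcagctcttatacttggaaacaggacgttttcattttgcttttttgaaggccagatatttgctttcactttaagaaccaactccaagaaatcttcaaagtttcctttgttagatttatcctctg
RRP42 (chrIV:264201-264350, - strand): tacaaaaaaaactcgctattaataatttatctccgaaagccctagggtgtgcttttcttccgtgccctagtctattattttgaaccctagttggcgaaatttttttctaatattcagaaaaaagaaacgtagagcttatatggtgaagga
RRP12 and NOP7 each hold several copies of both elements, NOP1 and RRP14 hold both, NOP16 holds PAC alone, and UTP22 and RRP42 hold neither in the 300 bases searched. A match is a description of these letters and not a measured binding site.

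The 53 genes moved together from library to library, and they did so between replicates of one strain as well as between strains. Summed over the 53, the wild-type libraries gave 9038, 11140 and 11259 scaled CPM, the swp82Δ libraries 10794, 15352 and 14897, the snf2Δ libraries 8506, 10059 and 8837, and the snf5Δ libraries 6793, 9552 and 12631. The swp82Δ group was highest (13681 ± 2511, SD, n = 3) and snf2Δ lowest (9134 ± 818), with the wild type (10479 ± 1249) and snf5Δ (9658 ± 2921) between them. Only snf2Δ and swp82Δ had sums that did not overlap. Within snf5Δ the highest library was above every wild-type library and the lowest was below every library of the study. Since RNA was taken from whole cultures, fewer cells expressing a gene and less RNA per cell cannot be told apart.

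**Figure D1:**
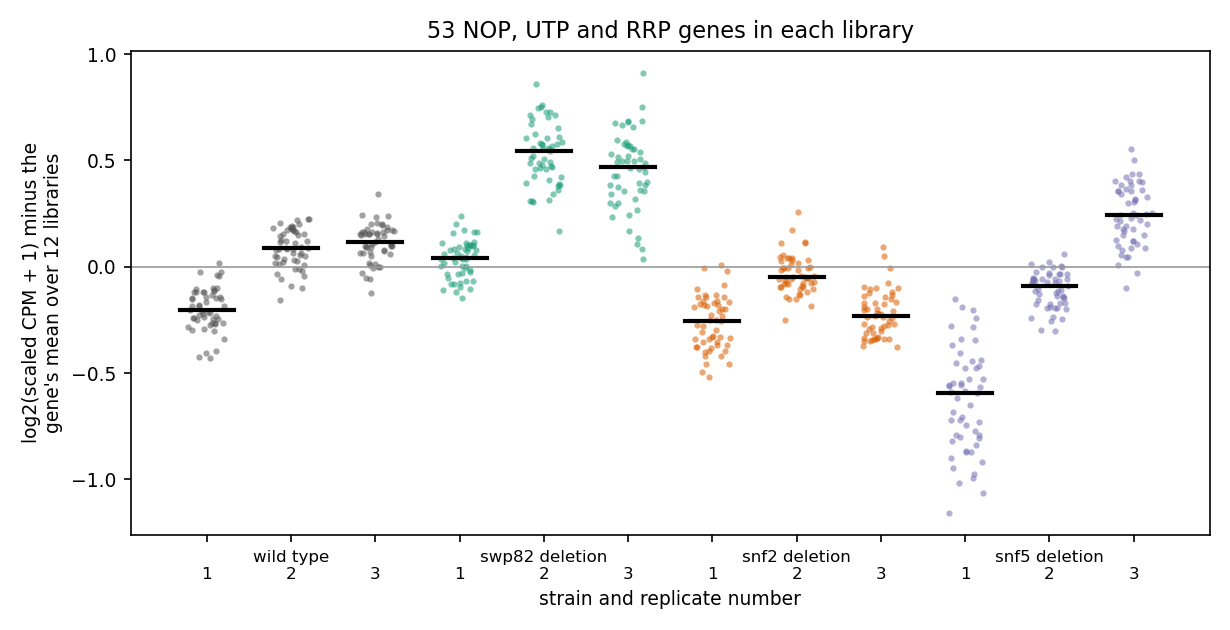
Level of each of the 53 genes in each library, as log2(scaled CPM + 1) minus the gene's mean over the 12 libraries; points are genes and bars are medians over the 53. Medians run from -0.59 in replicate 1 of snf5Δ to 0.54 in replicate 2 of swp82Δ, and replicate 1 is the lowest library of each strain.

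Replicate 1 held the lowest value for 53 of the 53 genes in the wild type, 52 in swp82Δ, 53 in snf5Δ and 36 in snf2Δ. Over all genes tested, the library with the lowest value was replicate 1 for 40.6%, 41.7%, 40.6% and 36.7% in the same order. The highest value lay in replicate 3 of snf5Δ for all 53 and in replicate 2 of snf2Δ for all 53, against 40.3% and 37.3% of all genes tested. The labels give no date or batch that would separate replicate 1 from the others, and its cause was not tested. The spread this gave was wide: the median SD between replicates was 0.29 on the log2 scale for the 53 genes and 0.11 over all 5820 genes tested.

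Deviations from the strain means were nearly parallel across the members. Over the 12 libraries, the 1378 pairs of members had a median Pearson r of 0.950 and a lowest r of 0.634, and 49 of 53 members had r above 0.9 with the mean of the other 52. Of the 5767 other genes, 540 (9.36%) had r above 0.9 with the mean of the members. These values share libraries, scaling and the same 3 replicates per strain, so they describe these 12 libraries. With scaling to total counts the median pair r was 0.943 and the lowest 0.482. Without the snf5Δ libraries the median was 0.937 and the lowest 0.385. The amplitude differed between members. RRP12, which encodes an export factor of both subunits, had the largest SD between replicates (0.48), followed by NOP7 (0.47), and RRP42, a ring subunit of the exosome, had the smallest (0.10). The 7 exosome genes had a median SD of 0.16, and the 46 other members 0.29.

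Members with both upstream elements varied more between replicates than members with neither. The median SD was 0.32 for the 26 genes with both, 0.26 for the 17 with PAC alone, 0.25 for the 5 with RRPE alone and 0.14 for the 5 with neither. The range was 0.23 to 0.48 with both elements and 0.10 to 0.25 with neither, so these ranges overlapped only at their ends. With PAC alone it was 0.13 to 0.43 and with RRPE alone 0.13 to 0.29, which overlapped both. The members with neither outside the exosome were UTP22 (0.11) and UTP30 (0.25). The split also separates roles, since 0 of 7 exosome genes held both elements and 3 of 7 held neither. No test was made of the difference.

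**Figure D2:**
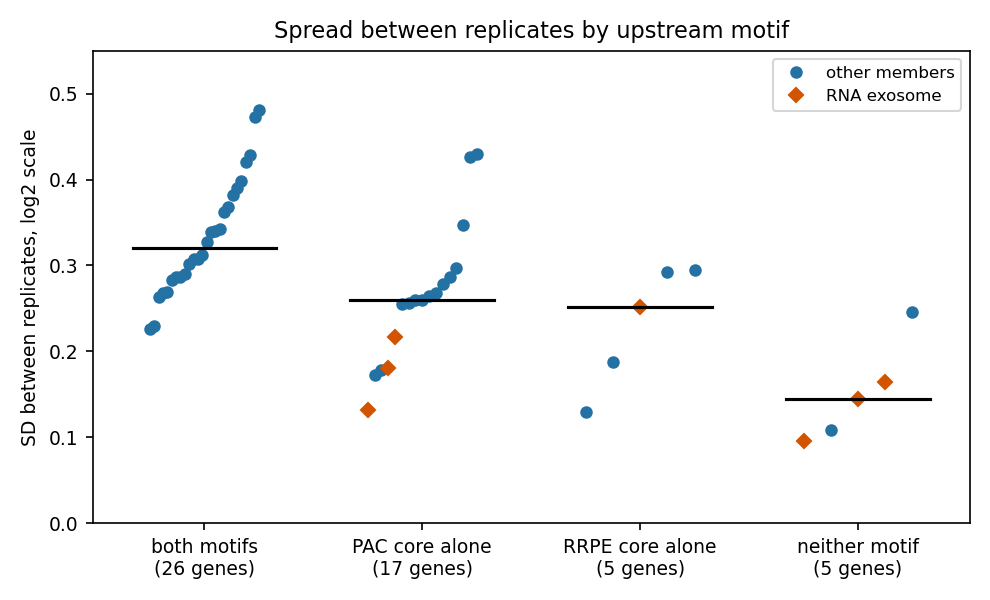
SD between replicates of each member (log2 scale, pooled over the 4 strains) by the elements found in the 300 bases before its start codon; diamonds are exosome genes and lines are medians. Medians fall from 0.32 with both elements to 0.14 with neither, and RRP12 and NOP7 are the 2 highest points, at 0.48 and 0.47.

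Genes outside the 53 followed the same course. Of 111 other measured ribosome biogenesis genes, 110 had r above 0.9 with the mean of the members, and 55 of the 100 non-member genes with the highest r were on that list, which makes up 1.92% of non-members. These r values compare deviations from the strain means, so they hold nothing of the differences between strains. The 10 genes most alike, by r of these deviations over the 12 libraries, were ALB1, ERB1, RPF2, NMD3, YDL129W, SQT1, BMS1, RIO1, TSR1 and MRD1, with r from 0.997 for MRD1 to 0.999 for ALB1. Of these, 9 were on the list of other biogenesis genes and YDL129W was not. The 5 most opposite were MRP8, TMA17, NTH2, MDJ1 and GLK1, with r from -0.997 for MRP8 to -0.989 for GLK1. All 26 genes of a list of general stress genes, which includes HSP12, CTT1 and TPS1, had a negative r (median -0.95), and the 137 cytosolic ribosomal protein genes had a median of 0.81.

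The general stress genes stood high where the members stood low. Their summed level was 3403 to 4947 scaled CPM in the wild type, 1734 to 3131 in swp82Δ, 4191 to 5867 in snf2Δ and 1492 to 6578 in snf5Δ, and 0 of their values were at 0. Replicate 1 of snf5Δ, the library with the lowest members, had a median deviation of 0.62 for the stress genes and -0.59 for the members. Replicate 3 of snf5Δ had -0.89 and 0.24. Of the 26, 5 were called lower in swp82Δ against the wild type (14 with the replicate block), beside 2.08% of all genes (6.68% with the block). Against swp82Δ 16 were called higher in snf2Δ, beside 21.7% of all genes. Their part in the differences between strains was not tested. The ribosomal protein genes differed less between replicates (median SD 0.08): their medians were 0.20, 0.32 and 0.33 in swp82Δ, -0.29, -0.26 and -0.29 in snf2Δ and -0.13, -0.11 and 0.08 in snf5Δ.

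**Figure D3:**
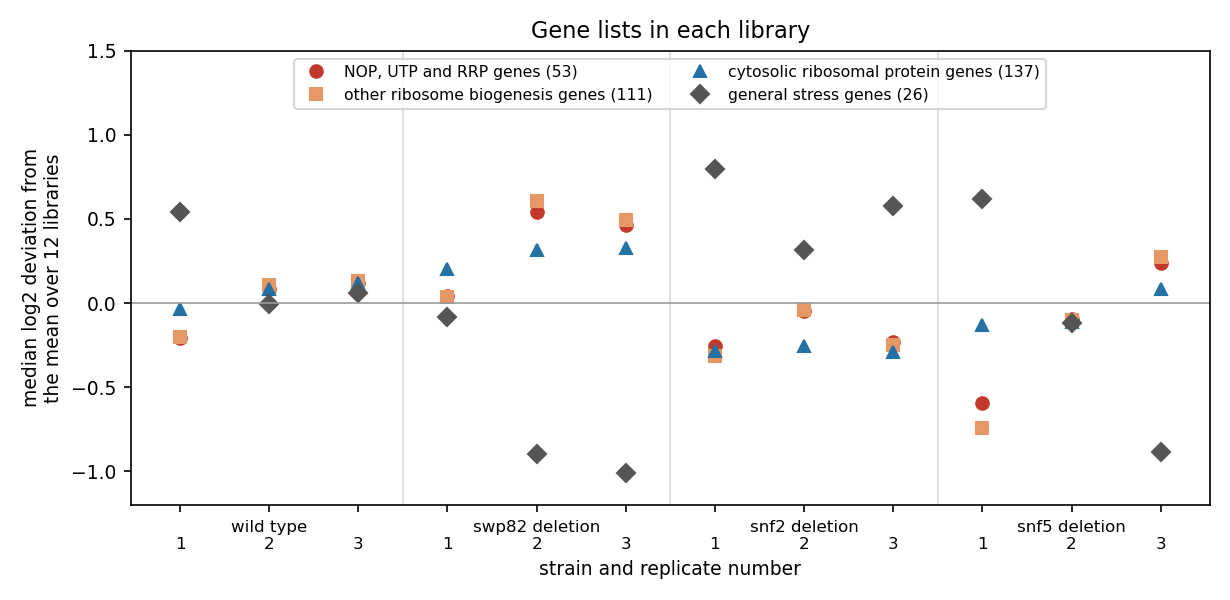
Median deviation of each gene list from its mean over the 12 libraries (log2 scale), by strain and replicate. The members and the other biogenesis genes follow each other, the stress genes lie on the opposite side in most libraries (0.62 in snf5Δ replicate 1, -0.89 in replicate 3), and the ribosomal protein genes stay between -0.29 and -0.26 in snf2Δ.

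The strains were compared with limma on log2(scaled CPM + 1) over all 5820 genes tested, and a gene was called at a Benjamini-Hochberg adjusted p under 0.05; fold changes are log2 values ± SE. Comparisons that share a strain share its 3 libraries. An F test over the 4 strains called 8 of the 53 members, against 50.3% of all genes: UTP22, NOP1, UTP9, RRP42, RRP43, RRP4, NOP58 and UTP15. Without replicate 3 of snf5Δ it called 43, without replicate 1 of snf5Δ 30, without replicate 1 of swp82Δ 22, and without any 1 of the other libraries 1 to 7.

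In snf5Δ against the wild type, 0 members were called higher and 1 lower, against 14.8% and 14.5% of all genes tested. The median fold change was -0.20, with 43 of 53 below 0, and the median over all genes was -0.01, with 3035 of 5820 below 0. Members moved nearly in parallel between libraries, so their signs, here and below, are not separate observations. The median was 0.06 without replicate 1 of snf5Δ and -0.39 without replicate 3, so its sign rested on 1 library. Without replicate 3 of snf5Δ 8 members were called lower. The groups did not overlap for 1 member, lower in snf5Δ, and for 0 higher ones, against 20.2% and 21.3% of all genes.

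In snf2Δ against the wild type, 0 members were called higher and 1 lower, against 13.6% and 14.1% of all genes tested. The median was -0.20 with 47 of 53 below 0, beside 2937 of 5820 genes. With scaling to total counts it was -0.05, where the median of all genes was 0.13. Relative to the median of all genes the members were lower under both scalings. With total counts 1 member was called higher and 0 lower, against 31.6% and 8.05% of all genes. Groups did not overlap for 2 members that were higher and 5 that were lower, against 27.1% and 25.9% of all genes. Without replicate 1 of every strain 9 members were called lower, against 14.1% of all genes; without replicate 1 of snf5Δ alone 3 were lower and 1 higher, and 0 were lower without replicate 2 or 3 of the wild type or any replicate of snf2Δ.

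In swp82Δ against the wild type, 0 members were called in either direction, against 1.41% of all genes called higher and 2.08% called lower. All 53 had a fold change above 0 (median 0.34, range 0.12 for RRP3 to 0.61 for NOP7), beside 2947 of 5820 genes. An unadjusted p under 0.05 was reached by 6 of the 53, beside 1430 of 5820 genes. Both edgeR and DESeq2 on the recovered reads also called 0 members. In this comparison same-numbered libraries deviated together (every r above 0.1). That was read from these same data, and the labels do not state a pairing. The block below was fitted over all 12 libraries. With replicate number as a block 11 members were called higher, against 6.77% of all genes: 6 NOP genes, 1 UTP gene and 4 RRP genes. They were NOP16, NOP6, RRP46, RRP42, NOP15, RRP14, RRP17, UTP30, NOP12, NOP1 and NOP7, and 5 of them are large-subunit factors. The groups did not overlap for 9 members, all higher in swp82Δ, against 15.0% of all genes. Without replicate 1 of every strain 12 were called higher, against 3.81% of all genes, and 1 was without replicate 1 of swp82Δ or of snf5Δ alone.

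Between snf5Δ and snf2Δ no member was called with limma, against 5.79% of all genes called higher and 6.68% lower. An unadjusted p under 0.05 was reached by 0 members, beside 1594 of 5820 genes, and edgeR and DESeq2 called 0. Every member overlapped between these strains, while 16.2% of all genes were higher and 16% lower without overlap. The median was 0.02 and ranged from -0.19 to 0.25 when 1 library was left out, and was -0.03 with scaling to total counts. A p that misses the threshold does not show that the levels were alike, and the median SE of a member's difference was 0.20.

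Against swp82Δ the members were lower in both other deletions. In snf5Δ 22 of 53 were called lower and 0 higher, a share of 41.5% beside 21.5% of all genes called lower and 20.4% called higher. The median was -0.52 and all 53 were below 0, beside 2963 of 5820 genes. In snf2Δ 25 were called lower and 0 higher, a share of 47.2% beside 21.8% called lower and 21.7% called higher. Here too the median was -0.52 and all 53 were below 0, beside 2883 of 5820 genes. Since members moved nearly in parallel between libraries, equal signs are not separate observations. The same 19 genes were called in both comparisons, which share the swp82Δ libraries, and 25 were called in neither. For snf5Δ, where same-numbered libraries also deviated together, the replicate block gave 46 members called lower, against 27% of all genes. The members it did not call were RRP7, RRP46, RRP15, NOP19, NOP10, RRP45 and NOP6. Without overlap between the groups there were 9 members lower in snf5Δ and 37 lower in snf2Δ, against 21.7% and 28.6% of all genes; 0 members were higher without overlap in either, against 21.9% and 29% of all genes.

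These counts rested on single libraries. For snf5Δ against swp82Δ the count was 2 without replicate 2 of swp82Δ, 4 without its replicate 3 and 42 without its replicate 1; it was 6, 11 and 46 without replicates 1, 2 and 3 of snf5Δ. It was 14 without any 1 of replicates 1 and 3 of snf2Δ and replicate 2 of the wild type. For snf2Δ against swp82Δ it was 2 and 3 without replicates 2 and 3 of swp82Δ, 42 without its replicate 1, 3 without replicate 1 or 3 of snf2Δ and 16 without its replicate 2. It was 44 and 37 without replicates 1 and 3 of snf5Δ, which enter through the shared spread. With scaling to total counts 4 members were called lower in each comparison, against 10.3% of all genes in snf5Δ and 9.92% in snf2Δ, where the median of all genes was 0.16 and 0.22 and the median of the members -0.35 and -0.31.

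**Figure D4:**
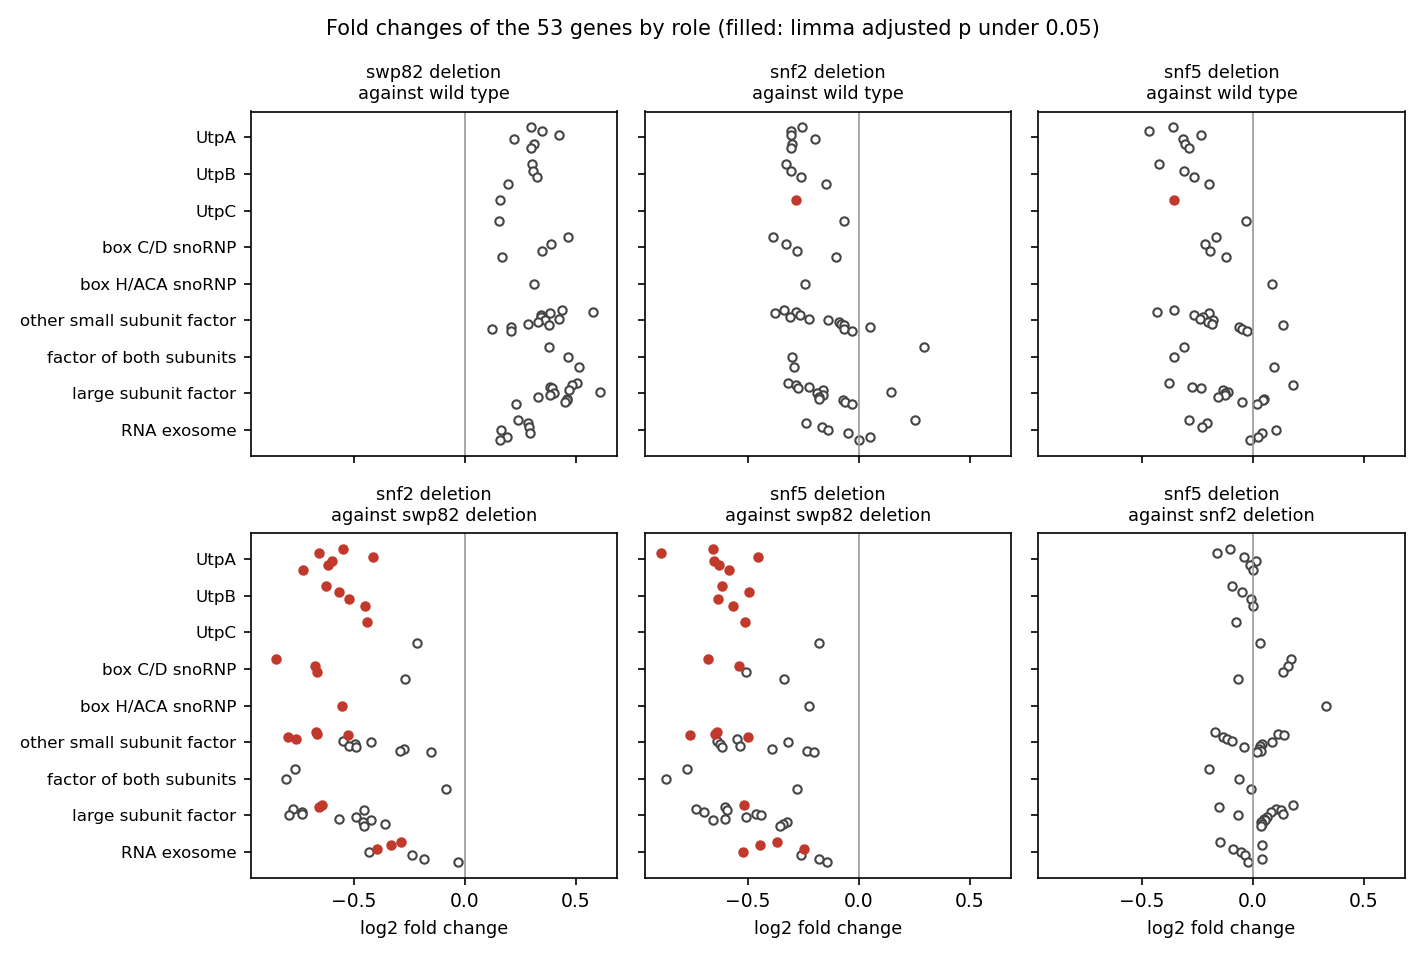
Log2 fold change of each of the 53 genes in the 6 comparisons, grouped by role; filled points have a limma adjusted p under 0.05. Against swp82Δ all 53 lie below 0 in both lower panels, with 25 and 22 filled, and against the wild type UTP22 is the filled point in snf2Δ and in snf5Δ.

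Among the small-subunit processome genes, UtpC held the member called against the wild type. UtpC is a subcomplex of the processome, and UTP22 (YGR090W, chromosome VII, 662358 to 666071 in R64) encodes one of its subunits. UTP22 gave 256, 287 and 281 scaled CPM in the wild-type libraries, 273, 329.6 and 321 in swp82Δ, 225, 227 and 225 in snf2Δ, and 196, 214 and 236 in snf5Δ. Every snf2Δ and snf5Δ library was below every wild-type library, and swp82Δ overlapped the wild type. The fold change against the wild type was -0.35 ± 0.08 in snf5Δ (limma adjusted p = 0.00916, up to 0.0413 with 1 library left out) and -0.28 ± 0.08 in snf2Δ (adjusted p = 0.0292). These were not the largest changes, since members reached -0.47 in snf5Δ and -0.39 in snf2Δ. The SE of UTP22 was small beside the median of 0.20 over the 53. The snf2Δ call was lost without replicate 2 or 3 of the wild type or any replicate of snf2Δ (adjusted p up to 0.107), and with total counts (-0.14, adjusted p = 0.147). Against swp82Δ UTP22 was lower by -0.51 ± 0.08 in snf5Δ (limma adjusted p = 0.000845) and by -0.44 ± 0.08 in snf2Δ (adjusted p = 0.00196). Its partner RRP7 gave 140.4, 149 and 158 scaled CPM in the wild type, 144, 191 and 165 in swp82Δ, 142, 149.7 and 136 in snf2Δ and 135, 144 and 159 in snf5Δ, and all 4 groups overlapped. RRP7 was called in 0 of the 6 comparisons.

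UtpA and UtpB are subcomplexes of the processome that join early. The 53 included 6 UtpA genes (UTP4, UTP5, UTP8, UTP9, UTP10 and UTP15) and 4 UtpB genes (UTP6, UTP13, UTP18 and UTP21). Subunits under other standard names were outside the naming rule and were not counted. All 10 members were called lower in snf5Δ and in snf2Δ against swp82Δ, where 21.5% and 21.8% of all genes were called lower. All 53 members had a fold change below 0 in both comparisons. With 1 library left out, the adjusted p of these 10 genes reached 0.0393 (UTP9) to 0.143 in snf5Δ and 0.0784 to 0.148 in snf2Δ, so of these calls that of UTP9 in snf5Δ held in every such fit. None of the 10 was called by limma against the wild type. An unadjusted p under 0.05 was reached by 2 in snf5Δ and 0 in snf2Δ and in swp82Δ. Of all 5820 genes tested, 2309, 2267 and 1430 reached it in the same order. UTP9 gave 149.9, 185 and 181 scaled CPM in the wild type, 174, 239 and 224 in swp82Δ, 141, 152 and 137 in snf2Δ and 103, 141 and 163 in snf5Δ. Every swp82Δ library was above every snf2Δ and snf5Δ library, and snf5Δ against swp82Δ differed by -0.65 ± 0.16 (limma adjusted p = 0.00855). UTP10 gave 156, 197 and 197 in the wild type, 202, 284 and 255 in swp82Δ, 141, 166 and 136 in snf2Δ and 81.5, 139 and 201 in snf5Δ. The highest snf5Δ library was just below the lowest swp82Δ library, and the difference was -0.89 ± 0.26 (limma adjusted p = 0.0187). That call was lost without replicate 2 of swp82Δ (limma adjusted p = 0.0730) or without its replicate 3 (0.0554).

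UTP5 had the highest level per kb of the UtpA genes among the members, at 141 scaled CPM per kb over the 12 libraries. It gave 239.7, 299 and 304 scaled CPM in the wild type, 304, 398 and 346 in swp82Δ, 214, 264 and 205 in snf2Δ and 152, 245 and 302 in snf5Δ. The swp82Δ libraries were above all snf2Δ and snf5Δ libraries (limma adjusted p = 0.0383 and 0.0365, up to 0.131 and 0.128 with 1 library left out). UTP18 led the UtpB genes among the members, at 90.97 scaled CPM per kb. It gave 153, 185 and 187 scaled CPM in the wild type, 179, 226 and 198 in swp82Δ, 138, 150.1 and 129 in snf2Δ and 90.6, 143 and 169 in snf5Δ. Again swp82Δ did not overlap snf2Δ or snf5Δ, while snf2Δ was also below the wild type, and the calls (limma adjusted p = 0.0446 and 0.0237) reached 0.148 and 0.0895 with 1 library left out.

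The 2 members with the highest level per kb were snoRNP genes. NOP10, a core protein of box H/ACA snoRNPs, and NOP1, the fibrillarin methyltransferase of box C/D snoRNPs, stood at 1516 and 1169 scaled CPM per kb, and the next member, NOP16, at 389. NOP1 (YDL014W, chromosome IV, 427364 to 428347) gave 996, 1232 and 1185 scaled CPM in the wild type, 1240, 1741 and 1778 in swp82Δ, 805, 930.4 and 869 in snf2Δ and 747, 899.7 and 1382 in snf5Δ. All swp82Δ libraries were above the wild type and all snf2Δ libraries below it, while snf5Δ spanned both. Against swp82Δ NOP1 was lower in snf2Δ by -0.85 ± 0.20 (limma adjusted p = 0.00669, up to 0.0314 with 1 library left out) and in snf5Δ by -0.68 ± 0.20 (adjusted p = 0.0211, up to 0.0775 with 1 library left out). NOP58, another box C/D core protein, gave 307, 361 and 365 scaled CPM in the wild type, 341, 495 and 495 in swp82Δ, 253, 307 and 262 in snf2Δ and 231, 296 and 397 in snf5Δ. The snf2Δ libraries were below all swp82Δ libraries, by -0.68 ± 0.19 (limma adjusted p = 0.0157, up to 0.0647 and lost without replicate 2 or 3 of swp82Δ or replicate 1 or 3 of snf2Δ). Of the 4 box C/D genes among the members, 3 were called lower in snf2Δ and 2 in snf5Δ against swp82Δ, beside 21.8% and 21.5% of all genes.

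NOP10 gave 221, 272 and 278 scaled CPM in the wild type, 243, 353 and 373 in swp82Δ, 196, 231 and 223 in snf2Δ and 228, 254 and 348 in snf5Δ. The snf2Δ libraries were below all swp82Δ libraries, a called difference of -0.55 ± 0.18 (limma adjusted p = 0.0309, up to 0.116 with 1 library left out). It was the member with the smallest p between snf5Δ and snf2Δ, at 0.33 ± 0.18 (limma adjusted p = 0.277), and was followed by RRP46 (-0.15 ± 0.11) and RRP3 (-0.17 ± 0.13). RRP3, a DEAD-box protein of small-subunit maturation, gave 124, 136 and 117 scaled CPM in snf2Δ and 98.8, 105 and 134 in snf5Δ, and these groups overlapped.

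Of the 13 other small-subunit factors, 4 were called lower in snf5Δ and 5 in snf2Δ against swp82Δ, beside 21.5% and 21.8% of all genes, and 0 against the wild type. NOP6 had the highest level per kb among them (378 scaled CPM per kb). It gave 187, 244 and 265 scaled CPM in the wild type, 232, 331 and 322 in swp82Δ, 207, 259 and 251 in snf2Δ and 190.2, 263 and 324 in snf5Δ. All 4 groups overlapped for NOP6, and swp82Δ differed from the wild type by 0.34 ± 0.20 (limma adjusted p = 0.310, or 0.0260 with the replicate block).

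The 3 factors of both subunits (RRP5, RRP12 and RRP14) showed wide spreads, and limma called 0 of them in any comparison. Against swp82Δ 2 had an unadjusted p under 0.05 in snf5Δ and 2 in snf2Δ, beside 2982 and 3058 of 5820 genes. The replicate block called all 3 lower in snf5Δ against swp82Δ, beside 27.0% of all genes. RRP12 gave 216, 312 and 299.9 scaled CPM in the wild type, 286, 484 and 426 in swp82Δ, 199, 263 and 210.4 in snf2Δ and 119, 225 and 360.4 in snf5Δ. Its highest library was 4.08 times its lowest, and the snf5Δ libraries alone spanned the whole wild-type range. RRP14, related to mammalian SURF6, gave 239, 299 and 309.7 in the wild type, 301, 413 and 391.6 in swp82Δ, 320, 384 and 333 in snf2Δ and 222, 320.5 and 381 in snf5Δ. Here all snf2Δ libraries were above the wild type, by 0.29 ± 0.19 (limma adjusted p = 0.275).

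The 13 large-subunit factors among the members had a median fold change of 0.45 in swp82Δ against the wild type. There limma called 0, and 2 had an unadjusted p under 0.05, beside 1430 of 5820 genes. The replicate block called 5 higher, beside 6.77% of all genes. Against swp82Δ 1 was called lower in snf5Δ and 2 in snf2Δ, a smaller share than the 21.5% and 21.8% of all genes, with medians of -0.52 and -0.57; the median SE was 0.24, against 0.20 over the 53. NOP16 gave 200.2, 238 and 255 scaled CPM in the wild type, 273, 366 and 349 in swp82Δ, 240.3, 276 and 247 in snf2Δ and 194, 268 and 342 in snf5Δ. All swp82Δ libraries were above the wild type, by 0.51 ± 0.18 (limma adjusted p = 0.129, or 0.0230 with the replicate block). NOP7, of the Nop7-Erb1-Ytm1 complex, gave 335, 445 and 472 in the wild type, 418, 724 and 831 in swp82Δ, 313, 423 and 365 in snf2Δ and 242, 408 and 649 in snf5Δ. These 4 groups overlapped, apart from swp82Δ replicates 2 and 3, which were above all 10 other libraries.

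The 7 exosome genes among the members had SDs between replicates of 0.10 (RRP42) to 0.25 (RRP6). UTP22 and RRP7 of UtpC had 0.11 and 0.13. RRP42 gave 118, 132 and 131 scaled CPM in the wild type, 147, 162 and 141 in swp82Δ, 118, 127 and 122 in snf2Δ and 114, 128 and 136 in snf5Δ. All swp82Δ libraries were above all others, by 0.24 ± 0.08 against the wild type (limma adjusted p = 0.10, or 0.0342 with the replicate block), and snf2Δ was lower than swp82Δ by -0.29 ± 0.08 (adjusted p = 0.0116). The last call was lost without replicate 2 of swp82Δ (limma adjusted p = 0.0530) and with total counts (-0.07). RRP43 gave 99.9, 106 and 114 in the wild type, 103, 137 and 121 in swp82Δ, 91.6, 98.8 and 93.4 in snf2Δ and 84.0, 93.2 and 100.3 in snf5Δ. Both deletions were below all swp82Δ libraries, and snf5Δ differed from swp82Δ by -0.37 ± 0.10 (limma adjusted p = 0.0132, lost without replicate 2 of swp82Δ at 0.0550).

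RRP46, another ring subunit of the exosome, gave 92.3, 105 and 102 scaled CPM in the wild type, 110.4, 138 and 118 in swp82Δ, 112, 126 and 119 in snf2Δ and 91.7, 111 and 121 in snf5Δ. Both swp82Δ and snf2Δ were above every wild-type library, by 0.29 ± 0.11 (limma adjusted p = 0.145, or 0.0301 with the replicate block) and by 0.25 ± 0.11 (adjusted p = 0.107). Of the 7 exosome genes, 4 were called lower in snf5Δ (RRP4, RRP6, RRP42 and RRP43) and 3 in snf2Δ (RRP4, RRP42 and RRP43) against swp82Δ, beside 21.5% and 21.8% of all genes. Each of these calls was lost in at least 1 fit without 1 library (limma adjusted p up to 0.131 for RRP6 in snf5Δ and 0.122 for RRP4 in snf2Δ).

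**Figure D5:**
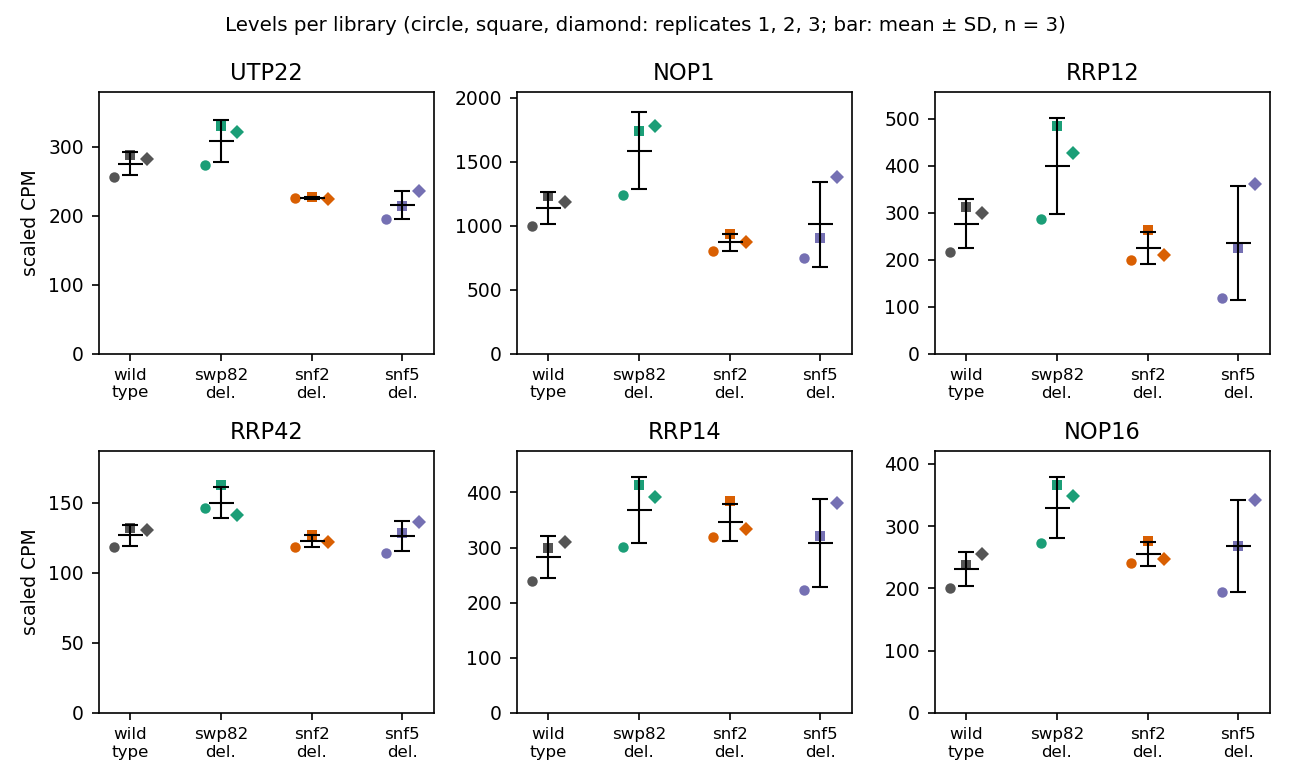
Scaled CPM of 6 members in each library; circles, squares and diamonds are replicates 1, 2 and 3, and bars are mean ± SD (n = 3). UTP22 lies between 196 and 236 in snf2Δ and snf5Δ and between 256 and 287 in the wild type, while RRP12 runs from 119 to 360.4 within snf5Δ.

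Levels were also taken relative to the mean of the other members in the same library. This removes the scaling factor of a library, but it removes the shared movement only where a member follows the others with the same amplitude; slopes on the mean of the others ran from 0.277 (RRP42) to 1.75 (RRP12). On that scale 44 of 53 members overlapped between snf2Δ and snf5Δ on one side and the wild type and swp82Δ on the other. RRP14, NOP6, NOP16, NOP19 and UTP11 were higher in all 6 libraries of the former pair than in all 6 of the latter, and UTP10, UTP4, UTP21 and NOP9 were lower. Over all genes tested, taken relative to the same mean, 5.98% were higher and 1.82% lower without overlap. These shares are not like for like with the member counts. Between replicates, members followed the mean of the others (median r 0.980), while other genes did not follow the mean of the members (median r 0.0043). Subtracting it therefore takes spread out of members and can add spread to other genes. Of these 9 members RRP14 had the largest difference, a mean of 0.35 on the log2 scale; its relative level, against a wild-type mean of 0, was 0.46, 0.49 and 0.48 in snf2Δ, 0.30, 0.30 and 0.20 in snf5Δ and 0.06, 0.02 and 0.03 in swp82Δ. NOP16 stood at 0.33, 0.30 and 0.33 in snf2Δ, 0.39, 0.34 and 0.34 in snf5Δ and 0.22, 0.14 and 0.15 in swp82Δ. Of the 4 lower members UTP10 had the largest difference and the widest spread in snf5Δ, at -0.10, -0.10 and -0.20 in snf2Δ and -0.53, -0.29 and -0.10 in snf5Δ. These genes were chosen after their values were seen, so no test was made.

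Of 111 other ribosome biogenesis genes measured, 0 were called in snf5Δ, 1 in snf2Δ (lower) and 0 in swp82Δ against the wild type, with medians of -0.19, -0.21 and 0.35. In snf5Δ 1 and in swp82Δ 6 had an unadjusted p under 0.05, beside 2309 and 1430 of 5820 genes. The replicate block called 11 in swp82Δ, beside 783 of 5820 genes. The called gene was XRN1, a cytoplasmic and nuclear 5′ to 3′ exonuclease, at 434 ± 8.61 scaled CPM in the wild type and 376 ± 13.1 in snf2Δ (-0.20 ± 0.05, limma adjusted p = 0.00876), or -0.06 (adjusted p = 0.382) with total counts. SHQ1, an assembly factor of box H/ACA snoRNPs, had the smallest p in snf5Δ (-0.32 ± 0.14, limma adjusted p = 0.108) and MTR3, an exosome ring subunit, in swp82Δ (0.35 ± 0.12, adjusted p = 0.111). Against swp82Δ 33 (29.7%) were called lower in snf5Δ, or 103 with the replicate block, and 40 (36.0%) in snf2Δ, shares that lie between those of the members and of all genes. Of the ribosomal protein genes, 122 of 137 were lower and 2 higher in snf2Δ, 18 lower and 2 higher in snf5Δ and 9 higher in swp82Δ against the wild type, or 99 higher in swp82Δ with the replicate block. The share called lower was 89.1% in snf2Δ, against 14.1% of all genes, and 13.1% in snf5Δ, against 14.5%, and the share called higher in swp82Δ was 6.57%, against 1.41%. With total counts 82 were lower in snf2Δ, and 7 were lower and 7 higher in snf5Δ.

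Of 11 measured regulators of these genes, SFP1 was called lower in snf2Δ and in snf5Δ against both other strains. Sfp1 activates ribosome biogenesis and ribosomal protein genes. SFP1 gave 150.1, 148 and 136 scaled CPM in the wild type, 155, 148 and 141.5 in swp82Δ, 106, 96.8 and 111 in snf2Δ and 110.1, 98.3 and 97.3 in snf5Δ. The snf2Δ and snf5Δ libraries were all below the wild type and swp82Δ, by -0.47 ± 0.07 and -0.50 ± 0.07 against the wild type (limma adjusted p = 0.000648 and 0.000362, at most 0.00443 with 1 library left out). DOT6 gave 311, 347 and 315 in the wild type, 210.1, 235 and 248 in swp82Δ, 418, 432 and 470.2 in snf2Δ and 361, 333 and 316 in snf5Δ. It was lower than the wild type in every swp82Δ library (-0.49 ± 0.08, limma adjusted p = 0.00799) and higher in every snf2Δ library (0.44 ± 0.08, adjusted p = 0.00180), and these calls held with each library left out. In snf2Δ against the wild type STB3 (0.29 ± 0.07) and CRF1 (0.67 ± 0.16), a corepressor of ribosomal protein genes, were also called higher and FHL1 (-0.20 ± 0.06), which binds their promoters, lower. The STB3 call was lost without replicate 2 or 3 of the wild type or replicate 1 or 3 of snf2Δ (limma adjusted p up to 0.0607), and the FHL1 call without any replicate of either strain (adjusted p up to 0.120) and with total counts (-0.06). TOD6, the paralog of DOT6, was called in 0 comparisons. Its fold changes against the wild type were -0.45 ± 0.39 in snf2Δ, -0.62 ± 0.39 in snf5Δ and 0.41 ± 0.39 in swp82Δ. In snf2Δ and swp82Δ these estimates were opposite in sign to those of DOT6. With SEs this wide the signs for TOD6 were not established. TOD6 gave 57.4, 161 and 217 scaled CPM in snf5Δ, where the members also rose from replicate 1 to 3 and DOT6 fell. These genes were named after their values were seen, and whether their levels bear on those of the members was not tested.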

How the data were processed

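RNA was sequenced from 12 cultures of BY4741 yeast in 4 strains of 3 biological replicates each. Groups and replicate numbers came from the sample titles. Build sacCer3, Bowtie2 2.1.0, TopHat2 2.0.10 and edgeR 3.8.6 are listed in the submitters' processing notes; nothing on the counting tool, strand setting or annotation is given in the sources used here. In the deposited files the signal is CPM divided by TMM factors: 100% of the authors' values were whole multiples of 1 read (tolerance 0.05 of a read), so reads were recovered. Of the gene IDs, 5685 matched R64 and 250 did not. PBF1 and PBF2 of the regulator list matched no row.

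Genes with at least 1 scaled CPM in at least 3 libraries (5820, with 115 removed) were fitted with limma 3.58.1 in R 4.3.3 (trend option, log2(value + 1), strain only, all 12 libraries), two-sided, adjusted by Benjamini-Hochberg over all genes. Fold changes on this scale understate those of low genes. edgeR 4.0.16 and DESeq2 1.42.0 on recovered reads, other scalings, a pseudocount of 0.1, no filter, a replicate block, the libraries of the 2 strains alone and leaving out libraries were alternatives; the fit without replicate 1 of every strain, and leaving out libraries of strains not compared, were added after seeing the data. Only the limma fit without a block was run on simulated data. There each gene varied independently, so that run does not cover replicate differences shared by many genes, as seen in the members. Same-numbered libraries deviated together (every r above 0.1) for swp82Δ with the wild type (0.255 to 0.599) and with snf5Δ (0.116 to 0.660); the labels do not say what a number marks.

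Members and lists were chosen with earlier results of these data known. Values by library are given for the 4 called members with the smallest p per comparison and direction (3 where none was called), the highest member per kb in each role, and the members with the smallest and largest SD. Others are described by counts, apart from those said to be chosen after their values were seen; NOP7 and RRP14 in the sequences and NOP7 by library were such choices. Genes with UTP, NOP or RRP names only as aliases were not members, so counts for a complex or role cover only its members under the naming rule. Promoters were read from R64.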

Additional observations from a re-analysis of the deposited data

How the results depend on the processing

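With 12 libraries and replicates that differ this much, counts of calls moved by over 1.5 times under several settings, while the sign of each strain's median held except in snf5Δ against the wild type and against snf2Δ. With the replicate block, 3 members were called lower in snf5Δ against the wild type, beside 17.6% of all genes. In snf2Δ against the wild type 2 were lower and 1 higher, beside 17.1% and 16.6%. Against swp82Δ 46 were lower in snf5Δ and 47 in snf2Δ, beside 27.0% and 26.8%. In swp82Δ against the wild type 11 were higher, beside 6.77%. In snf5Δ against snf2Δ 1 (NOP10) was higher, beside 8.63%. The F test with the block called 47 members, beside 3669 of 5820 genes. Every same-number correlation was above 0.1 only for swp82Δ with the wild type and with snf5Δ. Elsewhere the lowest was -0.10 to 0.05, while others were higher, up to 0.617 for replicate 1 of snf5Δ with the wild type. Whether same-numbered libraries belong together is not given by the labels. With total-count scaling 4 members were lower in snf5Δ and 4 in snf2Δ against swp82Δ, 1 higher and 0 lower in snf2Δ against the wild type, and 2 in the F test. Upper-quartile factors gave 1 higher in snf2Δ against the wild type. DESeq2 gave 28 in the F test. Fitting only the 2 strains compared gave 1 lower in snf5Δ and 42 in snf2Δ against swp82Δ, and 13 lower and 1 higher in snf2Δ against the wild type. Without replicate 1 of every strain, 9 members were lower in snf2Δ and 12 higher in swp82Δ against the wild type. These stood beside 14.1% and 3.81% of all genes. Against swp82Δ 40 were lower in snf5Δ and 49 in snf2Δ, beside 21.9% and 25.6%. The F test in that fit called 47 members, beside 3068 of 5779 genes. Leaving out 1 library gave 1 to 43 in the F test, 2 to 46 and 2 to 44 lower in snf5Δ and snf2Δ against swp82Δ, 1 to 8 lower in snf5Δ against the wild type, 0 to 3 lower and 0 to 1 higher in snf2Δ, and 0 to 1 higher in swp82Δ. The cause of these changes was not tested. Depth limits little here: the lowest member value rested on 196 reads (RRP36).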
